A study of Mus musculus with 8 samples.

Results

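The genes described here were 10 genes that set the pace of the G1 phase of the cell cycle in fibro/adipogenic progenitors (FAPs), the muscle-resident mesenchymal cells that can give rise to fibroblasts and fat cells. They were chosen by name and comprised the D cyclins Ccnd1, Ccnd2 and Ccnd3, their partner kinases Cdk4 and Cdk6, the CIP/KIP inhibitors Cdkn1a (p21) and Cdkn1b (p27), and the INK4 inhibitors Cdkn2a (p16, with p19Arf), Cdkn2b (p15) and Cdkn2c (p18). All 10 were in the table of 31053 genes and all 10 were among the 10181 genes with enough counts to be tested. FAPs came from the hind limb muscles of mdx mice (strain C57BL/10ScSn-Dmdmdx/J, 45 days old), a model of Duchenne muscular dystrophy that lacks full-length dystrophin, and all 8 samples carried this mutation, so that no wild-type control entered. Cells negative for CD45, CD31 and ITGA7 and positive for SCA-1 were sorted by high or low SCA-1 signal and grown for 5 days in growth medium with serum, giving 4 samples with high SCA-1 (SCA1-High-FAPs) and 4 with low SCA-1 (SCA1-Low-FAPs). RNA was read as 3′ mRNA libraries, and all values describe the cultured cells and not the freshly sorted ones.

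D cyclins are made in answer to growth factors and bind CDK4 or CDK6, and these complexes phosphorylate the retinoblastoma protein, which releases E2F factors to switch on the genes of DNA replication. INK4 proteins bind CDK4 and CDK6 and keep the cyclin away. The CIP/KIP proteins p21, p27 and p57 inhibit the cyclin E and cyclin A complexes of CDK2 and can also help D cyclins and CDK4 to assemble. Cdkn1a is a classic target of p53 and also answers to mitogens and to TGF-beta, while the protein level of p27 is set largely by its degradation, which RNA counts do not show.

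Between 1880561 and 3985656 reads per sample fell on genes. Levels are given in CPM, the counts of a gene per 1000000 counts of the sample after TMM scaling, and a gene with 3 counts, the least taken as detectable, stood at 0.792 to 1.63 CPM (counting error only, since PCR copies cannot be told apart). Reads of these libraries lie near the 3′ end whatever the length of the transcript, so CPM was not divided by gene length. A gene was called where edgeR's quasi-likelihood test gave a Benjamini-Hochberg adjusted p below 0.05 with a log2 fold change above 0.5 or below -0.5. Fold changes are SCA1-Low-FAPs over SCA1-High-FAPs, with their standard error (SE). Of all tested genes 7.68% were called, 3.32% as higher in SCA1-Low-FAPs and 4.36% as higher in SCA1-High-FAPs. In 6.67% of tested genes every SCA1-Low-FAPs sample lay above every SCA1-High-FAPs sample, and in 7.46% the reverse held. Fewer cells of a type and less RNA per cell cannot be told apart in such bulk samples, and p-values measure the spread between these samples, whose origin from separate mice is not spelled out sample by sample.

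One library lay nearer to the other cell state than the rest of its group did. Replicate 3 of SCA1-Low-FAPs correlated with the SCA1-High-FAPs samples at a mean Pearson's r of 0.919 over tested genes, against 0.860 to 0.887 for the other SCA1-Low-FAPs samples. Its mean r with its own group was 0.928, within the 0.915 to 0.939 of the others, and values without it are given where they matter. Ly6a, which encodes SCA-1 itself, stood at 492, 789, 645 and 919 CPM in SCA1-High-FAPs and at 1100, 1080, 1156 and 1014 CPM in SCA1-Low-FAPs, so that its RNA after culture went against the order of the sort (log2 fold change 0.61 ± 0.17 SE, adjusted p = 0.0341, edgeR). Without SCA1-Low-FAPs replicate 3 the log2 fold change of Ly6a was 0.57 and did not pass the test (adjusted p = 0.0621, edgeR). The FAP marker Pdgfra was present in every sample (157 to 291 CPM), and Dpp4 had no counts. Among other FAP markers Thy1 was higher in SCA1-Low-FAPs, and Dcn and Col3a1 in SCA1-High-FAPs. The fat cell genes moved with the cell state. Their summed level was 2977 to 11251 CPM in SCA1-High-FAPs and 521 to 1466 CPM in SCA1-Low-FAPs, with Lpl and Adipoq called among 6 tested of 7. Pax7, Myod1, Myf5, Myog and Ckm of muscle cells, Emcn and Cldn5 of endothelium and Cd3e, Cd79a and Adgre1 of leucocytes had no counts in any sample, and no endothelial, muscle or Schwann cell marker had enough counts to be tested. Lyz2, a myeloid gene and the only leucocyte marker of 7 that could be tested, was higher in SCA1-High-FAPs, and the leucocyte genes summed to 25.3 to 48.0 CPM there and to 12.5 to 19.3 CPM in SCA1-Low-FAPs. Among pericyte and smooth muscle genes Myh11 and Cspg4 were higher in SCA1-Low-FAPs and Notch3 in SCA1-High-FAPs, at 23.8 to 44.7 against 27.3 to 67.0 CPM in all. The part of these other cell types and of the differing share of fat cell RNA in the levels below was not tested.

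Of the 10 genes, Cdkn1a alone was called. It was higher in SCA1-Low-FAPs by 2.24-fold. The 5 cyclin and kinase genes all had positive log2 fold changes (0.19 to 1.36) and the 4 other inhibitors all had negative ones (-0.55 to -0.26). With all samples and the cell state alone in the fit, none of these 9 was called by edgeR or DESeq2. Ccnd1 was called with the replicate number as a block and Cdkn2b without SCA1-Low-FAPs replicate 3, as given below. In addition to Cdkn1a, Ccnd3 and Cdk6 had an unadjusted p under 0.05, where 2164 of all 10181 tested genes did. The share of called genes, 1 of 10, lay near the 7.68% over all tested genes, and the median log2 fold change of the 10 was 0.25, against 0.00029 over all tested genes. In 2 of the 10 genes, Cdkn1a and Ccnd3, all SCA1-Low-FAPs samples lay above all SCA1-High-FAPs samples, beside 6.67% of all tested genes.

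**Figure D1:**
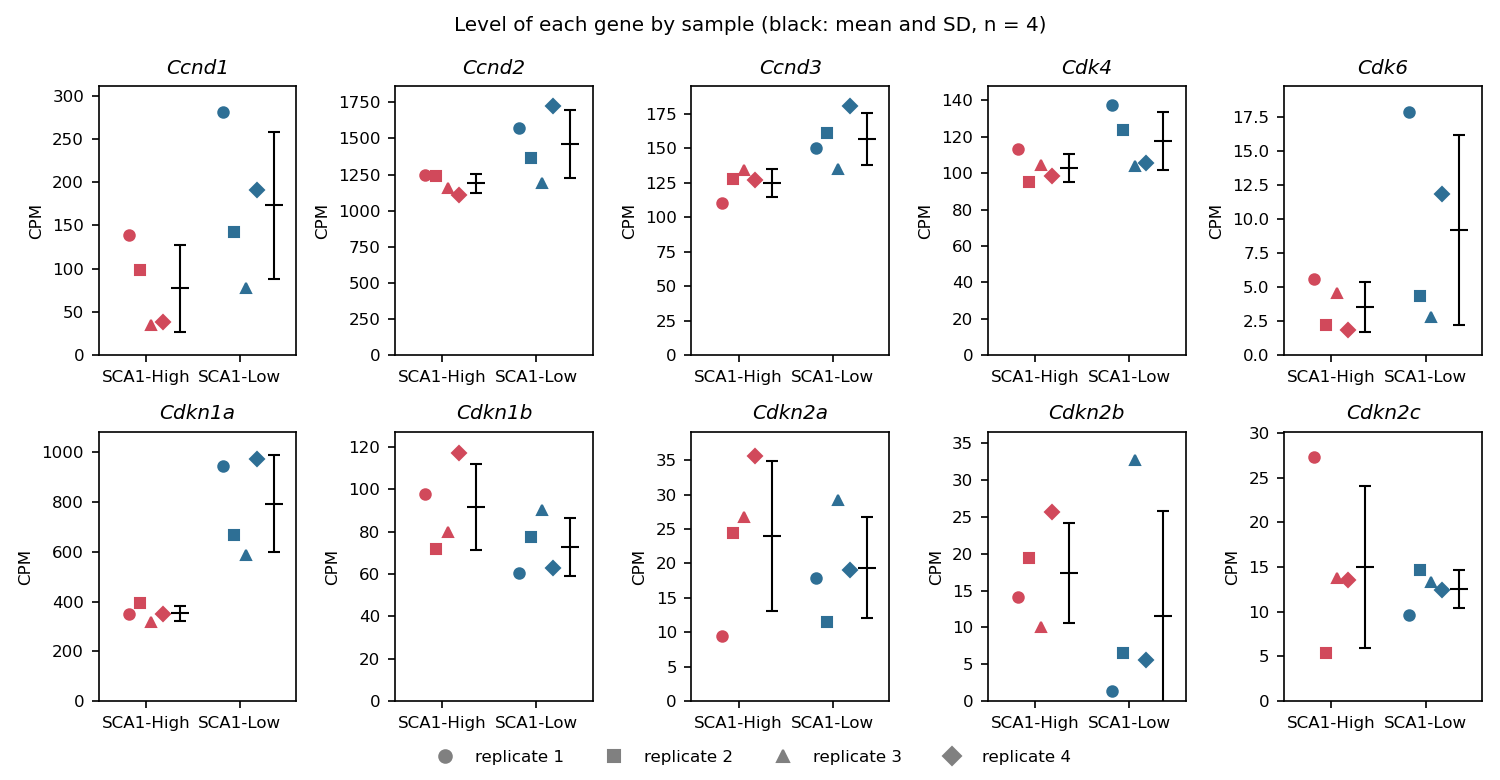
Level in CPM (y axis of each panel, from 0) of the 10 genes in the 4 SCA1-High-FAPs samples (red) and the 4 SCA1-Low-FAPs samples (blue), with symbols for the replicate numbers and black bars for mean and SD, the lower bar of Cdkn2b ending at the axis. The groups part for Cdkn1a (319 to 393 against 586 to 974 CPM) and narrowly for Ccnd3, and Cdkn2b has 1 high sample, replicate 3 of SCA1-Low-FAPs at 32.7 CPM.

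Cdkn1a lies on chr17:29090976-29100727 (GRCm38, plus strand) and its coding transcripts, which begin at separate starts, share their last exon, so the 3′ counts do not tell the starts apart. The bases before both starts are shown because Cdkn1a was the called gene. A response element of its best known regulator, p53, lies just before the upstream start, and none was found in the window of the downstream start. The first sequence holds the 120 bases before the upstream start, chr17:29090859-29090978 on the plus strand, and the second the 120 bases before the downstream start, chr17:29093649-29093768 (RefSeq, GRCm38.p6). Capitals mark a p53 response element in the first, and GC boxes (GGGCGG, either strand) and a TATAA on the gene's strand in the second. The third sequence holds 60 bases upstream of Ccng1, chr11:40755442-40755501 on the minus strand, with its own p53 response element in capitals. Ccng1 encodes cyclin G1, another textbook p53 target.
Cdkn1a, upstream start: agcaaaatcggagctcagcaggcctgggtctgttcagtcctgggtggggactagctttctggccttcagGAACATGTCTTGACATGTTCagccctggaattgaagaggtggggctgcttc
Cdkn1a, downstream start: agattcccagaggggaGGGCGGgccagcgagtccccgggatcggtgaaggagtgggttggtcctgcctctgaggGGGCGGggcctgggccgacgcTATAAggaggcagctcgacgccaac
Ccng1: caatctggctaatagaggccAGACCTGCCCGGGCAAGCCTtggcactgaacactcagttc

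The element was searched as 2 adjoining half-sites of the p53 response element, 20 bases in all with at most 1 mismatch and the C and G of each CNNG core kept, on both strands. Its 20 letters lie 51 to 32 bases before the upstream start of Cdkn1a and 195 to 176 bases before the start of Ccng1. Such a match occurred in 19 of 32851 promoter windows of 250 bases (0.0578%), GGGCGG in 32.7% and TATAA in 15.997%. Of the other genes, windows were in the table for Ccnd3, Cdk4, Cdk6, Cdkn1b, Cdkn2a, Cdkn2b and Cdkn2c, and none held the p53 element or the E2F motif (TTTGGCGC or TTTCGCGC, either strand, in 0.654% of all windows). GC boxes stood in windows of Ccnd3, Cdk4, Cdkn1b, Cdkn2a and Cdkn2c, and a TATAA in that of Cdk6. No window was available for Ccnd1 and Ccnd2, nor for Cdkn1c and Zmat3, which are described below, so these genes were not searched. The motifs and the mismatch allowed were chosen with the values of Cdkn1a known, and a match in these letters is a description and not a measurement of binding.

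Cdkn1a was read at 351, 393, 319 and 351 CPM in SCA1-High-FAPs and at 944, 668, 586 and 974 CPM in SCA1-Low-FAPs. The lowest SCA1-Low-FAPs sample, replicate 3, lay well above the highest SCA1-High-FAPs sample. Means were 353 ± 30.5 and 793 ± 195 CPM (SD, n = 4), and the log2 fold change was 1.17 ± 0.17 SE (adjusted p = 0.000672, edgeR). The SCA1-High-FAPs samples were tight, with an SD of 8.62% of the mean against 3.46% from counting alone, whereas the SD in SCA1-Low-FAPs was 24.6%. Cdkn1a ranked 12th by p-value and 109th by size of log2 fold change among the 338 genes called higher in SCA1-Low-FAPs. Without SCA1-Low-FAPs replicate 3 the log2 fold change was 1.28 (adjusted p = 9.8e-05, edgeR), and it ran from 1.05 to 1.28 over the fits that each left out a sample. At this level, in the top 2.24% of tested genes, Cdkn1a was also the most abundant inhibitor in every sample.

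Cdkn1b encodes p27, the inhibitor linked to quiescence, and lies on chr6:134920401-134925513. It stood at 97.9, 71.9, 79.7 and 117 CPM in SCA1-High-FAPs and at 60.4, 77.3, 90.1 and 63.1 CPM in SCA1-Low-FAPs. The groups overlapped, and the log2 fold change of -0.33 ± 0.20 SE did not pass the test (adjusted p = 0.367, edgeR). Set against each other within a sample, there were 3 to 5.47 Cdkn1a counts per Cdkn1b count in SCA1-High-FAPs and 6.50 to 15.6 in SCA1-Low-FAPs, with means of 4.01 ± 1.05 and 11.5 ± 4.67 (SD, n = 4). The ratio was higher in all SCA1-Low-FAPs samples than in any SCA1-High-FAPs sample. Among the counts of the 5 inhibitors together, Cdkn1a held 70.6% ± 4.81 in SCA1-High-FAPs against 86.5% ± 6.15 in SCA1-Low-FAPs (SD, n = 4). No test is given for these ratios, which rest on the same counts as the fold changes.

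**Figure D2:**
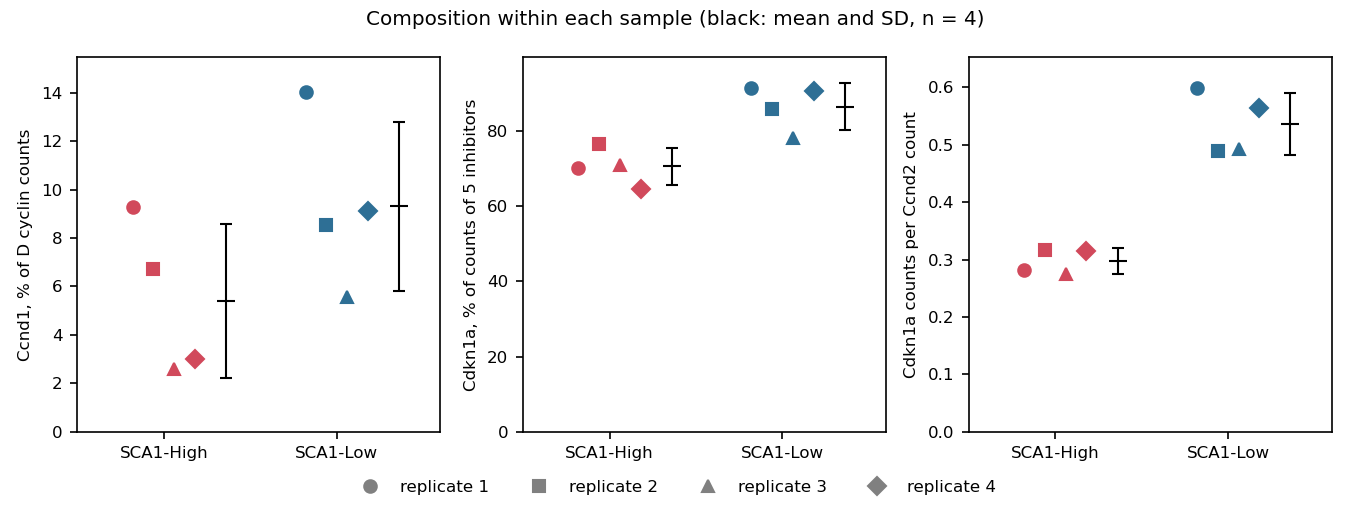
Per sample, Ccnd1 as a percentage of the counts of the 3 D cyclins, Cdkn1a as a percentage of the counts of the 5 inhibitors, and Cdkn1a counts per Ccnd2 count (y axes from 0), for SCA1-High-FAPs (red) and SCA1-Low-FAPs (blue) with mean and SD in black. The 2 measures with Cdkn1a do not overlap between the groups (at most 76.4% against at least 78.0%, and at most 0.318 against at least 0.489), while the Ccnd1 share does.

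The INK4 inhibitors were all low. Cdkn2a and Cdkn2b lie side by side on chr4 (89274471-89294653 and 89306299-89311039, both on the minus strand). Cdkn2a, known for marking senescent cells, stood at 9.42, 24.4, 26.7 and 35.6 CPM in SCA1-High-FAPs and at 17.9, 11.4, 29.2 and 19.01 CPM in SCA1-Low-FAPs. The groups overlapped over most of their range (log2 fold change -0.30 ± 0.37 SE, adjusted p = 0.708, edgeR), and the transcripts of p16 and p19Arf end in the same exon, so these counts cannot be split between them.

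Cdkn2b, the INK4 gene that TGF-beta induces in epithelial cells, stood at 14.1, 19.4, 10.0 and 25.7 CPM in SCA1-High-FAPs. In SCA1-Low-FAPs it stood at 1.45, 6.53, 32.7 and 5.54 CPM, so that the sample with the highest level of all 8 and the 3 with the lowest belonged to the same group. With all samples the log2 fold change was -0.55 ± 0.70 SE (adjusted p = 0.728, edgeR). Without SCA1-Low-FAPs replicate 3 it was -1.93 and passed the test (adjusted p = 0.0280, edgeR). This library was the one nearest to SCA1-High-FAPs across all tested genes, and its place in either reading was not tested further. The SD of Cdkn2b in SCA1-Low-FAPs was 123% of its mean, against 17.0% from counting alone.

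Cdkn2c (chr4:109660876-109667189, minus strand) encodes p18, which acts on CDK4 and CDK6 in differentiating cells. It stood at 27.3, 5.43, 13.8 and 13.6 CPM in SCA1-High-FAPs and at 9.67, 14.7, 13.3 and 12.4 CPM in SCA1-Low-FAPs. The SCA1-High-FAPs samples held both the highest and the lowest value, and the log2 fold change of -0.26 ± 0.42 SE (adjusted p = 0.795, edgeR) turned to 0.20 without SCA1-High-FAPs replicate 1.

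Ccnd2 was the main D cyclin transcript of these cells and lies on chr6:127125162-127152193. It was read at 1247, 1237, 1158 and 1112 CPM in SCA1-High-FAPs and at 1573, 1365, 1189 and 1727 CPM in SCA1-Low-FAPs, in the top 0.737% of tested genes. Of the SCA1-Low-FAPs samples 3 lay above all SCA1-High-FAPs samples, with replicate 3 within their range, and the log2 fold change was 0.30 ± 0.14 SE (adjusted p = 0.243, edgeR). Ccnd2 made up 85.6% ± 1.93 of the D cyclin counts in SCA1-High-FAPs against 81.8% ± 2.59 in SCA1-Low-FAPs (SD, n = 4). The SD of Ccnd2 was 5.45% of the mean in SCA1-High-FAPs and 16.1% in the other group, where counting alone gives 1.89% and 1.58%. Per Ccnd2 count there were 0.297 ± 0.0223 Cdkn1a counts in SCA1-High-FAPs against 0.536 ± 0.0544 in SCA1-Low-FAPs (SD, n = 4).

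Ccnd1, the D cyclin most closely tied to growth factor signalling, lies on chr7:144929931-144939925. It stood at 139, 98.6, 34.7 and 38.1 CPM in SCA1-High-FAPs and at 281, 143, 78.3 and 191 CPM in SCA1-Low-FAPs. All but 1 of the SCA1-Low-FAPs samples lay above all SCA1-High-FAPs samples, but SCA1-High-FAPs samples ranged from 34.7 to 139 CPM among themselves. The log2 fold change of 1.16 was of the same size as that of Cdkn1a. With an SE of 0.58, the change of Ccnd1 did not pass the test (adjusted p = 0.319, edgeR). With the replicate number as a block it was 1.25 and passed (adjusted p = 0.0107, edgeR), and DESeq2 with the block also called Ccnd1. No label ties these numbers to mice. Ccnd1 held 5.40% ± 3.19 of the D cyclin counts in SCA1-High-FAPs against 9.31% ± 3.49 in SCA1-Low-FAPs (SD, n = 4). Within SCA1-High-FAPs this share ran from 2.61% (95% Wilson interval 2.11% to 3.23%, counting error only) in replicate 3 to 9.29% (8.32% to 10.3%) in replicate 1, so the samples of one group differed beyond counting error.

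Ccnd3, a D cyclin prominent in differentiating muscle and blood cells (chr17:47505051-47599691), stood at 110, 128, 134.4 and 127 CPM in SCA1-High-FAPs and at 150, 161, 135.1 and 181 CPM in SCA1-Low-FAPs. The groups did not overlap, but the lowest SCA1-Low-FAPs sample, replicate 3, lay next to the highest SCA1-High-FAPs sample. The log2 fold change of 0.33 ± 0.15 SE (unadjusted p = 0.0453) did not pass after adjustment (adjusted p = 0.222, edgeR). Ccnd3 lies over Bysl, which had at most 221 counts in a sample, and Ccnd1 over LTO1, with at most 61 counts. Whether the counting used strand is not given in the sources used here.

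Cdk4 (chr10:127063534-127067920) was the steadier of the kinase genes. It stood at 113, 94.9, 104.4 and 98.7 CPM in SCA1-High-FAPs and at 137, 124, 103.7 and 106 CPM in SCA1-Low-FAPs. The groups overlapped, and the log2 fold change of 0.19 ± 0.16 SE did not pass the test (adjusted p = 0.544, edgeR). Cdk4 lies over Tspan31, which had at most 141 counts in a sample.

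Cdk6 (chr5:3341485-3531008) was the least abundant of the 10 genes, with 12, 5, 11 and 5 counts in SCA1-High-FAPs and 37, 8, 9 and 45 counts in SCA1-Low-FAPs. These were 5.65, 2.26, 4.59 and 1.83 CPM and 17.9, 4.36, 2.85 and 11.9 CPM. Replicates 1 and 4 of SCA1-Low-FAPs lay above all other samples, while replicates 2 and 3 lay within the range of SCA1-High-FAPs. The log2 fold change was the largest of the 10, at 1.36 ± 0.64 SE (unadjusted p = 0.0480, adjusted p = 0.230, edgeR). The SD was 51.2% of the mean in SCA1-High-FAPs, where counting alone gives 34.8%, and 75.6% in SCA1-Low-FAPs, where counting alone gives 20.1%. Of Cdk4 there were 7.68 to 36.3 counts per Cdk6 count in SCA1-Low-FAPs and 20.0 to 53.8 in SCA1-High-FAPs.

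**Figure D3:**
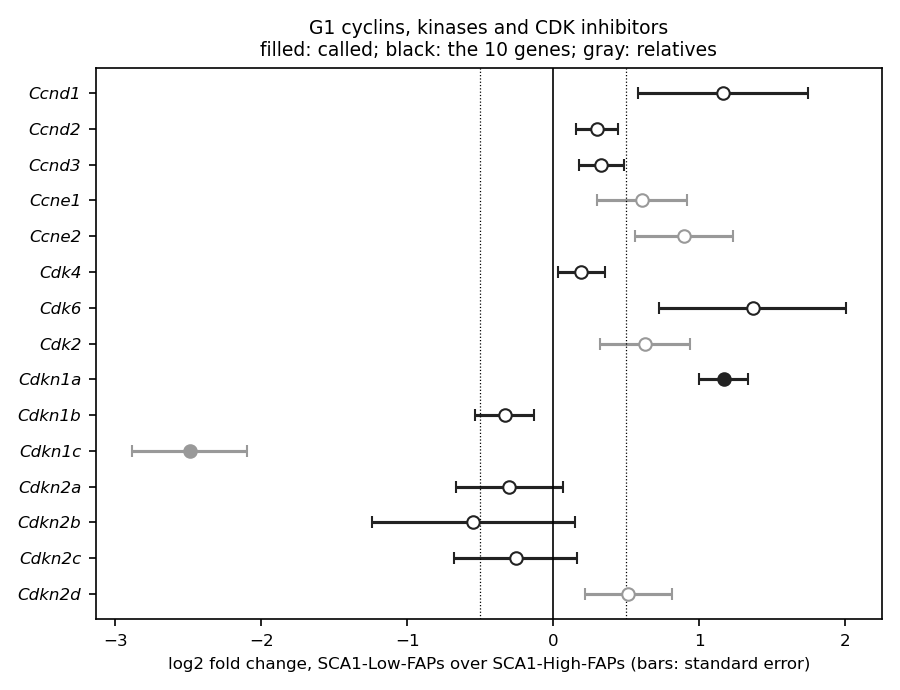
Log2 fold change, SCA1-Low-FAPs over SCA1-High-FAPs (x axis), with its SE for the 10 genes (black) and their close relatives (gray), filled where called and with dotted lines at the fold change threshold of 0.5. Cdkn1a (1.17) and Cdkn1c (-2.49) are the only filled points.

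The relatives of the 10 genes were then read from a list of 13. Cdkn1c, which encodes p57, the remaining CIP/KIP inhibitor and the product of an imprinted gene, was called in the opposite direction to Cdkn1a. It stood at 79.6, 48.8, 94.8 and 45.8 CPM in SCA1-High-FAPs and at 8.70, 9.80, 23.2 and 5.54 CPM in SCA1-Low-FAPs. The groups did not overlap, with a fitted level 5.62-fold higher in SCA1-High-FAPs (log2 fold change -2.49 ± 0.40 SE, adjusted p = 0.00185, edgeR). It was called in all 8 fits that left out a sample, and without SCA1-Low-FAPs replicate 3 the log2 fold change was -3.12. The CIP/KIP inhibitors thus gave a rise of Cdkn1a and a fall of Cdkn1c from SCA1-High-FAPs to SCA1-Low-FAPs, with Cdkn1b not called.

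The other 12 relatives did not pass the test in edgeR or in DESeq2, so 1 of 13 was called, beside 7.68% of all tested genes. Without the filter on low counts edgeR called 2. Ccne1 and Ccne2 encode the E cyclins that act after the D cyclins, and had log2 fold changes of 0.61 ± 0.31 and 0.89 ± 0.34 SE (adjusted p = 0.266 and 0.122, edgeR). Their kinase gene Cdk2 had one of 0.63 ± 0.31 SE (adjusted p = 0.249, edgeR). Cdkn2d, which encodes the INK4 inhibitor p19, had one of 0.51 ± 0.30 SE (adjusted p = 0.348, edgeR), positive where the other INK4 genes were negative.

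Among the RB and E2F factors, through which the D cyclin kinases act, 16 of 19 were tested and none was called by edgeR or DESeq2. Of these 16, 8 had an unadjusted p under 0.05, where 2164 of all 10181 tested genes did. Among the 8, E2f1, E2f3, E2f4, E2f8 and Tfdp1 had positive log2 fold changes and Rb1, Rbl2 and Tfdp2 negative ones. Rb1 and Rbl2, the genes of the pocket proteins RB and p130, stood at -0.69 ± 0.31 and -0.54 ± 0.21 SE (adjusted p = 0.211 and 0.141, edgeR), and Rbl1, for p107, at 0.05 ± 0.41 SE (adjusted p = 0.963, edgeR). The levels of Rbl2 did not overlap, at 44.8 to 64.7 CPM in SCA1-High-FAPs and 32.1 to 43.5 CPM in SCA1-Low-FAPs.

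Of 28 E2F target genes, all tested, 10 were called as higher in SCA1-Low-FAPs and none as higher in SCA1-High-FAPs, beside 3.32% and 4.36% of all tested genes. The median log2 fold change of the 28 was 0.74. Examples were Cdk1, the mitotic kinase (1.03, adjusted p = 0.00753), Ccna2, cyclin A2 (1.34, adjusted p = 0.00762), Rrm2, a subunit of ribonucleotide reductase (1.30, adjusted p = 0.00935), Tk1, thymidine kinase (1.17, adjusted p = 0.0129), and Mcm5, of the replicative helicase (1.11, adjusted p = 0.0163, all edgeR). The count changed with the samples used, as did that over all tested genes, 782 with all samples. It was 4 without SCA1-Low-FAPs replicate 1, 5 without replicate 2 and 4 without replicate 4. In these fits 417, 538 and 410 of all tested genes were called. Without replicate 3 there were 11 E2F targets among 1017 called genes. Cdk1, Ccna2 and Rrm2 were called in all 8 fits that left out a sample.

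Mitosis genes showed the same direction. Of 22, all tested, 15 were called as higher in SCA1-Low-FAPs and none as higher in SCA1-High-FAPs, beside 3.32% and 4.36% of all tested genes, and all 22 had positive log2 fold changes, with a median of 1.00. Aurka, the kinase of the spindle poles, stood at 3.76 to 10.8 CPM in SCA1-High-FAPs and at 27.3 to 43.0 CPM in SCA1-Low-FAPs (log2 fold change 2.27 ± 0.35 SE, adjusted p = 0.00109, edgeR). Birc5 (1.25), Plk1 (1.26), Prc1 (1.12) and Tpx2 (1.04), which act on the spindle and in cytokinesis, followed, with adjusted p-values of 0.00117 to 0.00149 (edgeR). Mki67, the proliferation marker, was at 130 to 172 CPM in SCA1-High-FAPs and at 194 to 308 CPM in SCA1-Low-FAPs, with a log2 fold change of 0.82 ± 0.17 SE (adjusted p = 0.00571, edgeR). In a separate assay, plated at a lower density, the paper reports a shorter doubling time for SCA1-High-FAPs than for SCA1-Low-FAPs. Their share of cells with the protein of Mki67 fell faster at later times, which the paper ties to a culture that filled earlier. How dense the cultures were when RNA was taken is not given, so cell state and density cannot be told apart here.

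**Figure D4:**
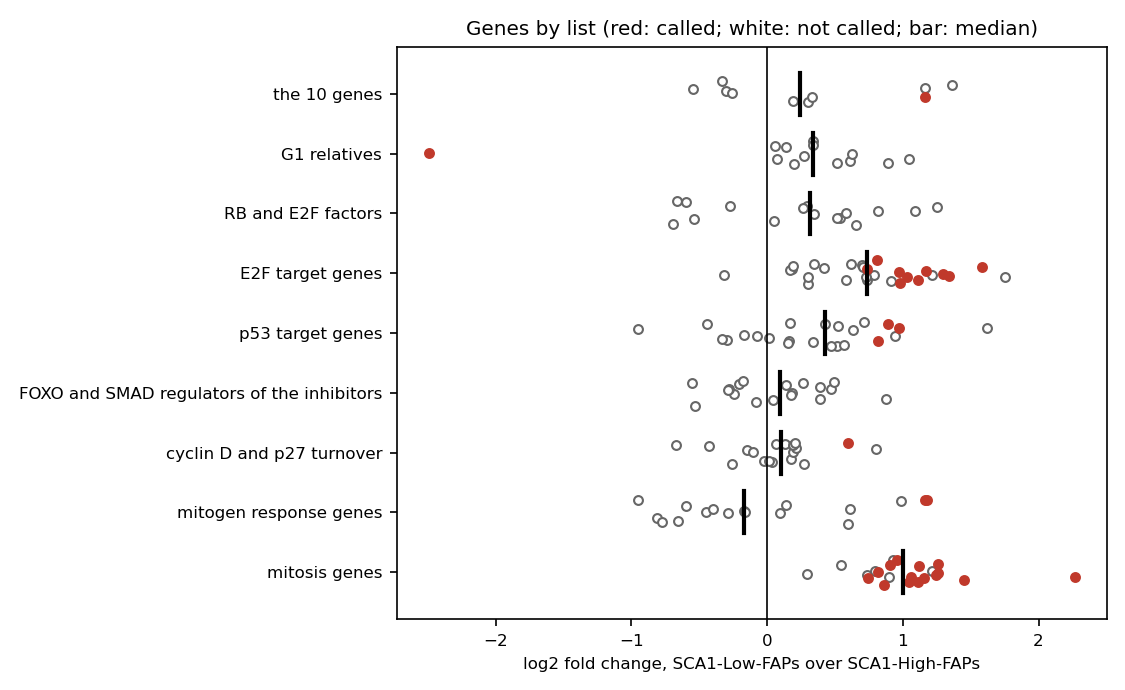
Log2 fold change, SCA1-Low-FAPs over SCA1-High-FAPs (x axis), of the tested genes of each list (rows), red where called, white where not, with the median as a bar and points spread vertically for legibility. Called are 10 of 28 E2F target genes, 15 of 22 mitosis genes and 1 of the 10 genes, beside 7.68% of all tested genes.

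Other targets of p53 were examined because Cdkn1a is the best known of them. Of 25 listed, without Cdkn1a, 23 were tested, 3 were called as higher in SCA1-Low-FAPs and none as higher in SCA1-High-FAPs, beside 3.32% and 4.36% of all tested genes, with a median log2 fold change of 0.43. Ccng1, shown above with its element, stood at 99.8, 78.2, 63.5 and 138 CPM in SCA1-High-FAPs and at 183, 184, 186 and 193 CPM in SCA1-Low-FAPs. The SCA1-Low-FAPs samples were tight and all above the other group (log2 fold change 0.97 ± 0.20 SE, adjusted p = 0.00609, edgeR). Zmat3, an RNA-binding protein, had 0.89 ± 0.19 SE (adjusted p = 0.00829) and Phlda3, an inhibitor of AKT, 0.82 ± 0.20 SE (adjusted p = 0.0196, edgeR). Phlda3 was not called without SCA1-Low-FAPs replicate 1 or without replicate 4, and its own promoter window held no match to the p53 element. Without SCA1-Low-FAPs replicate 3, and likewise without SCA1-High-FAPs replicate 1, the number of called targets was 5, with Gdf15 as higher in SCA1-Low-FAPs in both cases. In the former, and also with DESeq2, Trp53inp1 was called as higher in SCA1-High-FAPs (log2 fold change -0.95 with all samples, adjusted p = 0.0551, edgeR). DESeq2 called 5 other targets as higher in SCA1-Low-FAPs, among them Gdf15 (1.62, adjusted p = 0.00302, DESeq2). Mdm2, the p53 target that feeds back on p53, had 0.52 ± 0.18 SE (adjusted p = 0.0952, edgeR). Trp53, the gene of p53 itself, stood at 21.7 to 26.7 CPM in SCA1-High-FAPs and at 21.8 to 29.5 CPM in SCA1-Low-FAPs, with a log2 fold change of 0.18 ± 0.25 SE (adjusted p = 0.755, edgeR).

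Of the FOXO, SMAD and other factors that are known to act on the inhibitor genes, 18 of 19 were tested. None was called by edgeR with all samples and the cell state alone in the fit. Klf4 and Ezh2 had an unadjusted p under 0.05, where 2164 of all 10181 tested genes did. DESeq2 called Klf4 as higher in SCA1-Low-FAPs, where edgeR gave a log2 fold change of 0.88 (adjusted p = 0.0729). Without SCA1-Low-FAPs replicate 3 edgeR called Klf4 as well (1.05, adjusted p = 0.00819). It also did so with the replicate number as a block (0.91, adjusted p = 0.00736, edgeR). Of 18 genes that degrade D cyclins and p27, 1 was called, beside 7.68% of all tested genes. It was Cks1b, a cofactor in p27 degradation (0.60 ± 0.16 SE, adjusted p = 0.0294, edgeR). This call was lost without any one of SCA1-High-FAPs replicates 2, 3 and 4 or SCA1-Low-FAPs replicates 1 and 2. Of 18 genes that answer quickly to mitogens 17 were tested and 2 were called, both as higher in SCA1-Low-FAPs, beside 7.68% of all tested genes called in either direction and 3.32% in this one, with a median log2 fold change of -0.17. Ier3 had 1.18 ± 0.19 SE (adjusted p = 0.00129) and Fosl1, an AP-1 factor, 1.16 ± 0.31 SE (adjusted p = 0.0278, edgeR). The call of Ier3 held in all 8 fits that left out a sample, and that of Fosl1 in 3 of 8. With the replicate number as a block edgeR also called Egr1, as higher in SCA1-High-FAPs (-0.75, adjusted p = 0.0309). With the cell state alone its log2 fold change was -0.81 (adjusted p = 0.446, edgeR). Myc, a mitogen-induced gene, had -0.29 ± 0.38 SE (adjusted p = 0.739, edgeR).

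Each of the 10 genes was last set against all other tested genes by Pearson's r of log2 CPM over the 8 samples, as a description without a test, since the samples share the difference between the cell states and their depth. The gene most like Cdkn1a was Pdpn, which encodes the membrane glycoprotein podoplanin (r = 0.995), itself called with a log2 fold change of 1.74 (adjusted p = 0.00039, edgeR). The pairs of the D cyclins were Ccnd1 with Enc1 (r = 0.984), Ccnd2 with Lrrfip1 (r = 0.971) and Ccnd3 with Gpatch4 (r = 0.979). Those of the kinases were Cdk4 with Smc5 (r = 0.955) and Cdk6 with Fam8a1 (r = 0.978). Cdkn1b was most like Camta1 (r = 0.951), Cdkn2a like Rpl31 (r = 0.964), Cdkn2b like Ripor3 (r = 0.980) and Cdkn2c like Mlx (r = 0.976). Lrrfip1 and Pdpn were called and the other 8 of these partners were not.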

How the data were processed

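RNA of 8 cultures of FAPs was measured, 4 SCA1-High-FAPs and 4 SCA1-Low-FAPs, grouped as labelled. The authors made 3′ mRNA libraries, trimmed the reads, aligned them with STAR to mm10 and counted reads per Ensembl gene with htseq-count (tools as in the paper's methods and the submitters' processing notes). Reads with several positions were kept apart, and the deposited values are these raw counts. Summary entries were left out. Reads on no gene feature were 13.4% to 16.5% of the reads on genes and on no feature together. Symbols were matched for 30934 of 31053 genes (GENCODE M21, GRCm38), and 15873 genes had at least 1 count.

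The cell states were compared with edgeR 4.0.16 (robust quasi-likelihood, TMM, filterByExpr with at least 10 counts and 15 in total, Benjamini-Hochberg over 10181 genes) under R 4.3.3. SEs are log2 fold change over the root of F. Log2 CPM for correlations had a prior count of 2. The biological coefficient of variation was 0.279. Alternatives were RLE factors, DESeq2 1.42.0, other filters and thresholds, no robust estimation, a replicate block in both tools, and each sample left out. Scripts were checked on simulated data.

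The 10 genes and the lists were chosen with earlier results of these data known. All 10 genes were named, and from each list at most 5 called genes per direction with the smallest adjusted p, along with Ccne1, Ccne2, Cdk2, Cdkn2d, Cdkn1c, Rb1, Rbl1, Rbl2, Trp53 and Myc. Mki67, Mdm2, Gdf15, Trp53inp1, Klf4, Ezh2, Egr1, Ly6a, Pdgfra and the RB and E2F genes at an unadjusted p under 0.05 were named after their values were seen. Promoter sequences are RefSeq's. Python 3.11.15, with pandas 2.3.3 and matplotlib 3.10.9, served for tables and plots.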

Additional observations from a re-analysis of the deposited data

Results flagged for a closer look

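Over 51 genes, the 10 genes and the called genes of the lists included, each with 2 groups of 4 samples, Dixon's test set 5 of 102 groups apart for a single sample, and chance gives about 1 in 20. Cdkn2b stood at 32.7 CPM in SCA1-Low-FAPs replicate 3, where the other SCA1-Low-FAPs samples had 1.45 to 6.53 CPM. In the same library Rrm2 stood at 102 CPM, below the 175 to 180 CPM of the others, and Cenpf, of the kinetochore, at 122 CPM, below their 167 to 171 CPM. Kif20a, a kinesin of cytokinesis, stood at 60.4 CPM in SCA1-Low-FAPs replicate 2 and at 42.1 to 43.6 CPM in the other samples of the group. Ube2c, an enzyme of the anaphase-promoting complex, stood at 20.0 CPM in SCA1-High-FAPs replicate 3 and at 48.5 to 54.3 CPM in the others. Of these 5 values 3 came from the library that also lay nearest to the other cell state, and the reason was not tested.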

How the results depend on the processing

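Cdkn1a was called under all 15 alternatives. Only Ccnd1 and Cdkn2b changed sides of the threshold among the 10 genes. An adjusted p under 0.01 reduced the genes called from 782 to 307, those of the pathway lists from 32 to 18 and the E2F targets from 10 to 3. DESeq2 called 6 p53 targets in place of 3, and the fit without a filter on low counts called 5. With a sample left out there were 410 to 1017 genes called, 20 to 37 genes of the pathway lists, 4 to 11 E2F targets, 2 to 5 p53 targets, 12 to 16 mitosis genes and 1 to 2 of the 10 genes, and the log2 fold change of Cdkn1a was 1.05 to 1.28. That of Cdkn2c was -0.52 to 0.20 and changed sign without SCA1-High-FAPs replicate 1 (0.20), and Cdkn2b passed the test without SCA1-Low-FAPs replicate 3 (-1.93). Cdk6 could not be tested with at least 10 counts required in every sample or without SCA1-Low-FAPs replicate 4, nor Cdkn2b under the former.

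Over all tested genes, samples with the same number did not deviate together (r of their deviations from the group means -0.0165, 0.00673, -0.0137 and -0.0502). Of 4 pairs, 0 correlated best with its own number. SCA1-High-FAPs replicates 1, 2, 3 and 4 were nearest to SCA1-Low-FAPs replicates 2, 1, 4 and 3. Such an r over all genes cannot show whether single genes varied with the number. With the replicate number as a block, edgeR called 697 genes and 2 of the 10, Cdkn1a and Ccnd1 (log2 fold change 1.25, adjusted p = 0.0107), and DESeq2 with the block called 838 and 2, with Ccnd1 at an adjusted p of 0.00024. Cdk6 had 5 to 45 counts per sample, so its counting error was large, but its spread between samples was larger.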
